A study of Mus musculus with 2 samples.

Results

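The genes described here are 10 that encode transglutaminases, proteases of clotting and fibrin removal, and secreted proteins of wound matrix. They are Tgm1, Tgm2, F13a1, F10, F7, Fn1, Thbs1, Spp1, Sparc and Plau, out of 20656 named genes on the array. They were found through the RefSeq accession that the array gives each probe, with every such probe kept, and have 15 probes of 39424 used. Tissue repair depends on proteins that clot plasma, cross-link the clot and rebuild the matrix around it, and macrophages make many of them. Transglutaminases join glutamine and lysine side chains of neighbouring proteins, and so weld fibrin and fibronectin into a mesh that resists proteolysis. Factor VII and factor X are vitamin K-dependent serine proteases of the extrinsic clotting pathway, urokinase (Plau) starts the removal of fibrin by activating plasminogen, and fibronectin, thrombospondin 1, osteopontin and SPARC are secreted proteins that cells bind or that tune adhesion in a wound.

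Bone marrow-derived macrophages (BMDMs) are macrophages grown from mouse marrow, here in recombinant M-CSF. RNA from untreated BMDMs and from BMDMs given IL-4, a type 2 cytokine that drives macrophages toward the M2 state, was hybridised to 1 single-colour mouse array per condition. The labels place both samples at 18 h, and both came from 8-week-old male mice carrying floxed Crif1 alleles (Crif1 f/f). The dose of IL-4 used for the arrays and the number of mice behind each culture are not given in the sources used here. With 1 array per condition no difference has a replicate check, no test was run and no p-value is given. Each value below is the background-subtracted intensity of a spot as the scanner software wrote it, and each difference is the log2 IL-4 value minus the log2 untreated value once each array had been set to its own 75th percentile. The error beside a difference is the median SD between spots of probes that were printed in 10 spots and had a similar signal, which says nothing of how cultures differ.

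All 15 probes were printed in 1 spot each, were well above background on both arrays by the flag of the scanner software, and carried 0 outlier or saturation flags. Spots for genes were well above background in 59.8% of cases for untreated cells and 57.4% for treated ones. The labelled treatment was visible in 4 of 4 M2 markers, Arg1, Chil3, Retnla and Mrc1, which were all at least 2-fold higher on the IL-4 array. Of 8 macrophage markers, 7 had a probe and all 7 were well above background on both arrays. The 8 fibroblast markers and the 8 neutrophil markers were also above background on both arrays, with summed signals, in multiples of the 75th percentile of each array, of 361 and 328 for the fibroblast list and 43.1 and 38.4 for the neutrophil list in untreated and IL-4-treated cells. In such bulk RNA, fewer cells of a type and less RNA per cell cannot be told apart.

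Read from the brightest probe of each gene, F7 was the 1 gene of the 10 that was at least 2-fold higher, Tgm2 and Plau followed below that limit, and F13a1 was lower. The other 6 genes, Tgm1, F10, Fn1, Thbs1, Spp1 and Sparc, had log2 differences from -0.11 (Thbs1) to 0.24 (Spp1). Those of F10 and Spp1 were larger than 82.8% and 83.7% of the differences over genes measured on both arrays. The other probe of F10 had a difference of 2.42. The background over 14073 named genes detected on 1 or both arrays was 3.06% at least 2-fold higher and 3.35% lower by that much. At a 1.5-fold limit, which was not a planned setting, 3 of the 10 genes, F7, Tgm2 and Plau, were higher, against 6.36% of all genes. That share was counted for rises only. Plau passed narrowly at 1.54-fold, and F13a1, 1.49-fold lower, lay close to the same size in the other direction. The median difference of the 10 genes was 0.12, and that of the 12744 genes measured on both arrays was -0.01. Counted by probe, 3 of the 15 probes were at least 2-fold higher, against 2.63% of all probes well above background, and 1 was at least 2-fold lower, against 4.31%.

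**Figure D1:**
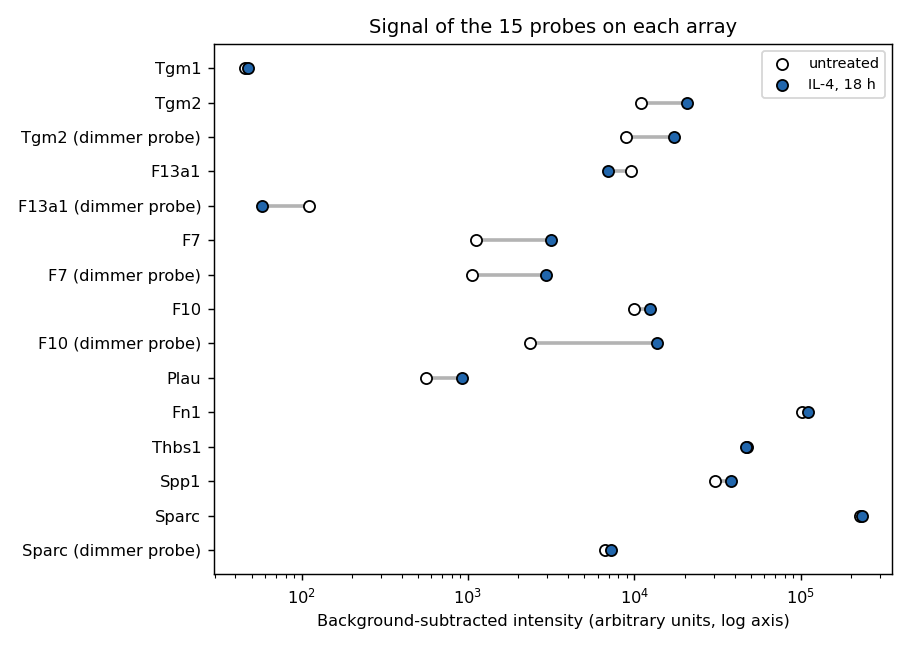
Background-subtracted intensity of each of the 15 probes (log axis, arbitrary units) on the untreated array (open circles) and the IL-4 array (filled circles), 1 array per condition. The circles lie apart for Tgm2, F7, Plau and the dimmer F10 probe, with IL-4 on the right, and for F13a1 with IL-4 on the left, while those of Fn1, Thbs1 and Sparc nearly coincide.

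Factor VII, which binds tissue factor to start the extrinsic pathway, gave the largest difference that was shared by every probe of a gene. Its brighter probe read 1114 without and 3168 with IL-4, and its other probe read 1049 and 2953. The IL-4 array was therefore the higher one at both probes, by 2.66-fold and 2.63-fold. The log2 differences were 1.41 (spot SD 0.057) and 1.39 (spot SD 0.059), a gap of 0.016 between the probes, where the median gap over 3292 genes with several measured probes was 0.142. With the other scalings of the arrays the difference of the brighter probe lay between 1.35 and 1.75.

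Factor X, the protease that factor VII activates and that turns prothrombin into thrombin, had 2 probes that did not behave alike. The brighter probe read 9960 in untreated and 12473 in IL-4-treated BMDMs, a 1.17-fold higher signal with a log2 difference of 0.22 (spot SD 0.046). The dimmer probe read 2367 in untreated and 13609 in IL-4-treated BMDMs, a 5.36-fold higher signal with a log2 difference of 2.42 (spot SD 0.050). Both readings put the IL-4 array higher, but the sizes differ by 2.20 on the log2 scale, a gap that only 7 of the 3292 genes, or 0.213%, equalled or exceeded. The array design ties each probe to a different RefSeq transcript of F10. The files hold no probe sequences, so what each probe binds was not tested. The difference of the gene is thus 0.22 from its brightest probe, 1.32 as the median of its probes and 2.42 from the dimmer probe, and the choice of probe decides whether F10 counts as at least 2-fold higher. The liver makes most plasma factor VII and X, and 6 of 8 hepatocyte markers, Alb among them, were above background on neither array. The others, Trf and Apoa2, were above background on both. Trf read 81565 in untreated and 78569 in IL-4-treated BMDMs, and Apoa2 read 1070 and 992.

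F7 and F10 lie next to each other on mouse chromosome 8 on the same strand, with 0 protein-coding genes between them, so the DNA just before each start site is shown for the members that share this position. The sequences are the 250 bases before a transcript start in RefSeq, build GRCm38.p6, from chr8:13025784-13026033 for F7 and chr8:13037058-13037307 for F10, both on the + strand and written 5′ to 3′. Capitals mark GAGGAA, the purine-rich core that the myeloid factor PU.1 can bind, read on either strand.
F7: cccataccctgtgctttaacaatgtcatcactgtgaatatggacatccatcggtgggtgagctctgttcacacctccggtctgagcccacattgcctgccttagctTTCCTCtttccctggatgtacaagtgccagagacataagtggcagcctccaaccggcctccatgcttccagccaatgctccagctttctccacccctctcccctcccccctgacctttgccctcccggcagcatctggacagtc
F10: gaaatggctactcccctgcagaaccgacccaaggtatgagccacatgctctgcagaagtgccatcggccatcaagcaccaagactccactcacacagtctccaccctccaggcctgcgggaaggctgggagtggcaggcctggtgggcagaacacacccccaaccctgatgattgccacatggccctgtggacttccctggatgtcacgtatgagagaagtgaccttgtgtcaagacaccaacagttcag

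The search covered windows of 250 bases before and 50 after each start, on both strands. STAT6, the transcription factor that IL-4 activates, prefers TTC and GAA with 4 bases between them, and this motif was in 0 of the 9 windows available for 6 of the 10 genes, against 6.95% of all 32851 windows in the table. No window was available for Tgm2, Fn1, Thbs1 or Plau, so these were not searched. The GAGGAA core, added after the values were seen, was in 4 of the 9 windows, against 28.3% of all windows. It stood at position -144 from the start of F7, as its reverse complement, and was not found in the F10 window. These counts describe letters in short windows only.

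The neighbours of F7 and F10 were read because F7 and the dimmer F10 probe were at least 2-fold higher. That choice was made after the values were seen, and F10 was not higher by the gene rule. Mcf2l, a guanine nucleotide exchange factor and the gene just before F7, read 1362 in untreated and 3706 in IL-4-treated BMDMs at its brightest probe, a 2.54-fold higher signal with a log2 difference of 1.34 (spot SD 0.053). Its other probes lay close to background, with differences of 0.53 (spot SD 0.23) and -0.28 (spot SD 0.21). Beyond F10, Proz, which encodes the vitamin K-dependent protein Z, did not rise above background in either condition. Pcid2 had a difference of 0.73 (spot SD 0.11) and Cul4a, a cullin of ubiquitin ligases, one of 0.37 (spot SD 0.052). On the other side of Mcf2l, Atp11a and Tubgcp3 had differences of -0.12 and 0.16. At their brightest probes Mcf2l and F7 were thus above 1, while F10 was at 0.22 and passed 1 at its dimmer probe only. The measured genes on both flanks lay below 1. How often adjacent genes elsewhere share such differences was not counted.

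**Figure D2:**
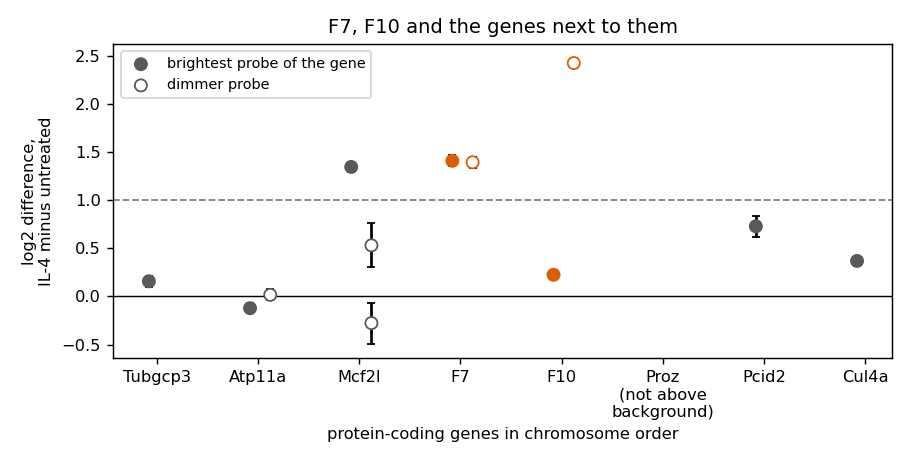
log2 difference (IL-4 minus untreated) of F7 and F10 (orange) and of the protein-coding genes on either side (grey), in chromosome order and not to distance. Filled points are the brightest probe of a gene and open points its other probes, with the SD between spots as error bars. The brightest Mcf2l probe, both F7 probes and the dimmer F10 probe lie above the dashed line at 1. The other Mcf2l probes and the brightest F10 probe lie below it, and Tubgcp3 and Atp11a lie near 0.

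Urokinase, the third protease, is the plasminogen activator that macrophages secrete and bind at their surface. Its 1 probe read 556 in untreated and 916 in IL-4-treated BMDMs. The signal was 1.54-fold higher after IL-4, with a log2 difference of 0.62 (spot SD 0.061), below the 2-fold limit with each scaling tried, where it lay between 0.57 and 0.96.

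Tissue transglutaminase, Tgm2, is the broadly expressed member of its family and a known marker of IL-4-treated macrophages. Its brighter probe read 10988 in untreated and 20665 in IL-4-treated BMDMs, and the other probe read 8864 and 17195. Both put the IL-4 array higher, by 1.76-fold and 1.81-fold. The log2 differences of 0.81 and 0.86, each with a spot SD of 0.045, were larger than 96.7% and 97.0% of the differences over genes measured on both arrays. They stayed below the 2-fold limit of 1, which the brighter probe passed with 1.03 when the arrays were scaled on their medians and 1.15 when scaled on spike-in RNA. These scalings moved the median of all genes to 0.20 and 0.33.

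F13a1 encodes the A subunit of factor XIII, the transglutaminase that cross-links fibrin, and was the gene of the 10 with the lowest difference. Its brighter probe read 9576 in untreated and 6895 in IL-4-treated BMDMs, a 1.49-fold lower signal with a log2 difference of -0.57 (spot SD 0.049). Its other probe was near background, at 110 and 57.5, and gave -1.04 (spot SD 0.18). The untreated array was higher at both probes, and in each setting tried the difference was below 0. Platelets and megakaryocytes also hold factor XIII A. Of 8 of their markers 6 were well above background on both arrays, with a median difference of -0.22 and summed signals of 49.1 in untreated and 39.0 in IL-4-treated cells, in multiples of the 75th percentile. These sums are mostly Pf4, which read 42569.5 and 36190.5, where the next brightest marker, Treml1, read 1502 and 1498. Itga2b, the αIIb integrin chain, was the 1 marker at least 2-fold lower, with a difference of -1.44. Pf4, Ppbp, Treml1, Gp1bb and Gp9 had differences between -0.56 and 0.01, and Gp1ba and Gp6 did not pass background in either condition. The 7 macrophage markers measured on both arrays had a lower median difference, of -0.70, with a range from -1.23 to 0.17. The part of platelets and megakaryocytes in the F13a1 result was not tested.

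Tgm1, the transglutaminase of the skin barrier, was barely above background in these cells. Its 1 probe read 45.5 in untreated and 47.4 in IL-4-treated BMDMs, and before background subtraction 115 and 110, where negative control spots had a median of 57 on both arrays. The log2 difference of -0.04 is smaller than the spot SD of 0.23 at this signal, so a difference was not detectable here. Its promoter is shown because it was the 1 window of the 9 searched that held TTCNNNGAA, the spacing that most other STAT factors prefer. TTCNNNGAA occurs in 8.30% of all windows. The 250 bases before this start lie at chr14:55713493-55713742 on the - strand of GRCm38.p6, and the 2 matches, in capitals, begin at positions -173 and -64 from it. Of 8 keratinocyte markers 4 were above background on both arrays, and the keratins Krt5, Krt14 and Krt1 on neither.
Tgm1: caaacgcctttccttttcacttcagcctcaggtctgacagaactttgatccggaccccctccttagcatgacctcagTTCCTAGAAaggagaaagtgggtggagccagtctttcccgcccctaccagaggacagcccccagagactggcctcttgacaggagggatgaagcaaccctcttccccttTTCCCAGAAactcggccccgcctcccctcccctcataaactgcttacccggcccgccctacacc

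**Figure D3:**
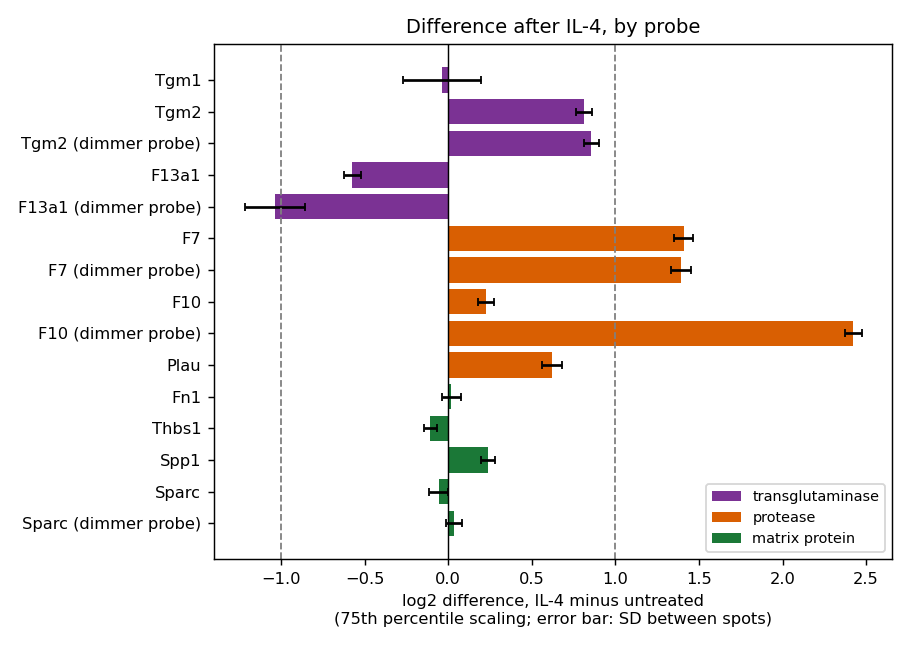
log2 difference (IL-4 minus untreated, 75th percentile scaling) of each probe, coloured by role, with the SD between spots of probes of similar signal as error bars and dashed lines at a 2-fold difference. The dimmer F10 probe and both F7 probes pass the upper line, the dimmer F13a1 probe passes the lower one, and the matrix proteins lie between -0.11 and 0.24.

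The secreted matrix proteins were bright on both arrays, with differences from -0.11 to 0.24. Fibronectin (Fn1), the main substrate of transglutaminases in provisional matrix, read 101891 without and 110595 with IL-4, a difference of 0.02 (spot SD 0.058). Thrombospondin 1 (Thbs1), a trimeric protein that binds CD36 and CD47 and activates latent TGF-β, read 47380 and 47108, a difference of -0.11 (spot SD 0.039). Sparc, a collagen-binding protein that loosens cell adhesion, read 225122 and 231716 at its brighter probe and 6624 and 7256 at the other, with differences of -0.06 and 0.03. After scaling, each probe of these 3 genes differed by at most 1.08-fold between the arrays. Osteopontin (Spp1), a ligand of integrins and CD44, read 30333 and 38274, 1.18-fold more on the IL-4 array, with a difference of 0.24 (spot SD 0.043). Few replicated probes are this bright, so the spot SDs of Fn1 and Sparc rest on 2 probes each and that of Thbs1 on 3. The sign for Fn1, Thbs1 and Sparc was not the same under every scaling, with ranges from -0.04 to 0.36, from -0.18 to 0.23 and from -0.12 to 0.28. Fibroblasts make large amounts of fibronectin and SPARC, and the 8 fibroblast markers, all above background, had a median difference of -0.12. Their part in these signals was not tested.

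Another 103 genes of the same processes, grouped in 6 lists, were read from their brightest probes in the same way. Signal passed background in 1 or both conditions for 85 of them. IL-4 gave a value at least 2-fold higher for 6 and at least 2-fold lower for 3, beside the 3.06% and 3.35% of all genes. The median difference of the 74 measured on both arrays was -0.09. With normexp background correction, Tfpi2, Comp and Ccn3 no longer counted as higher, nor Tnxb and Itga8 as lower.

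Of the 7 other members of the transglutaminase family, 3 were above background on at least 1 array. Tgm3, of hair and epidermis, read 663 and 634, a difference of -0.16, and was the only one of the 7 measured on both. Tgm4 and Tgm6 were above background in untreated BMDMs only, with falls of at least 0.70 and 0.77 on the log2 scale, bounds that leave a 2-fold fall possible. Tgm5, Tgm7, F13b, which encodes the carrier subunit of factor XIII, and Epb42 were well above background on neither array.

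Coagulation had 27 other genes, of which 18 passed background in 1 or both conditions and 2 were at least 2-fold higher. F2r, the thrombin receptor PAR1, read 1610 in untreated and 4493 in IL-4-treated BMDMs, a 2.60-fold higher signal. Tfpi2, a Kunitz-type inhibitor of serine proteases, was above background after IL-4 only, at 113, and was at least 3.61-fold higher. The substrates of the pathway, prothrombin (F2) and the fibrinogen chains Fga, Fgb and Fgg, were above background on neither array. Vkorc1, which recycles the vitamin K that factors VII and X need, had a difference of 0.07, and Gas6, a vitamin K-dependent ligand of TAM receptors, one of -0.34. Procr, the endothelial protein C receptor, had a difference of -0.47, and Vwf, which carries platelets to collagen, one of 0.46. Vwf also stood on a list of 8 endothelial markers, of which 7 were well above background on both arrays, with a median difference of 0.03. The part of endothelial cells in these signals was not tested. F3, the tissue factor that factor VII binds, lies outside the rule for named genes and is given for that role. It read 694 and 660, a difference of -0.17.

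Plasminogen activation had 12 other genes, all of them detected, and Serpinb2 was the 1 at least 2-fold higher. Serpinb2 is PAI-2, an inhibitor of urokinase made by macrophages, and read 800 in untreated and 1944 in IL-4-treated BMDMs, a 2.27-fold higher signal. The urokinase receptor Plaur and Anxa2, which holds plasminogen at the cell surface, had differences of 0.10 and 0.06, and Lrp1, which clears complexes of urokinase and its inhibitors, one of -0.50.

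Among 21 other matricellular genes, Comp and Ccn3 were at least 2-fold higher and Tnxb was at least 2-fold lower. Comp, a thrombospondin of cartilage, read 257 in untreated and 697 in IL-4-treated BMDMs, a 2.53-fold higher signal. Ccn3 was well above background after IL-4 only and read 40.7 in untreated and 160 in IL-4-treated BMDMs. Its 3.67-fold higher signal after scaling is the plain ratio of these values and not a minimum. Tnxb, a tenascin, read 69.8 and 37.2, a 2.01-fold lower signal at a level close to background. Its difference of -1.01 (spot SD 0.23) only just passed the limit. It fell short with median scaling (-0.79), spike-in scaling (-0.67), quantile normalization (-0.71) and no scaling (-0.91). The brightest others were level or slightly lower, with differences of -0.32 for Ccn2, -0.20 for Fbln2, -0.16 for Ecm1 and 0.13 for Tgfbi. None of the 20 structural matrix genes above background was at least 2-fold changed at its brightest probe. The brightest of them, Col1a1, Col1a2, Col6a1 and Col6a3, had differences of -0.34, -0.09, 0.29 and -0.10. Other probes did not always give the same reading. Vcan was at 0.40 at its brightest probe, but at -1.20 and -0.08 at its others. Fbln1, of the matricellular list, was at -0.29 and at -1.07 at its other probe.

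Receptors for these ligands went both ways. Sdc4, a proteoglycan that binds fibronectin, read 520 in untreated and 1462 in IL-4-treated BMDMs, a 2.62-fold higher signal. Itga4, the α4 integrin chain that binds fibronectin and osteopontin, read 3254 and 1561 at its brightest probe, a 2.23-fold lower signal, and its second probe gave -1.05 against -1.16. The brightest probe fell short of the limit with median scaling (-0.94) and spike-in scaling (-0.82). Itga8 read 93.7 and 30.6, a 3.28-fold lower signal close to background. Cd44 and Cd47 had differences of 0.65 and 0.45, and Itgb5 and Stab1, which takes up SPARC, had differences of -0.95 and -0.80.

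**Figure D4:**
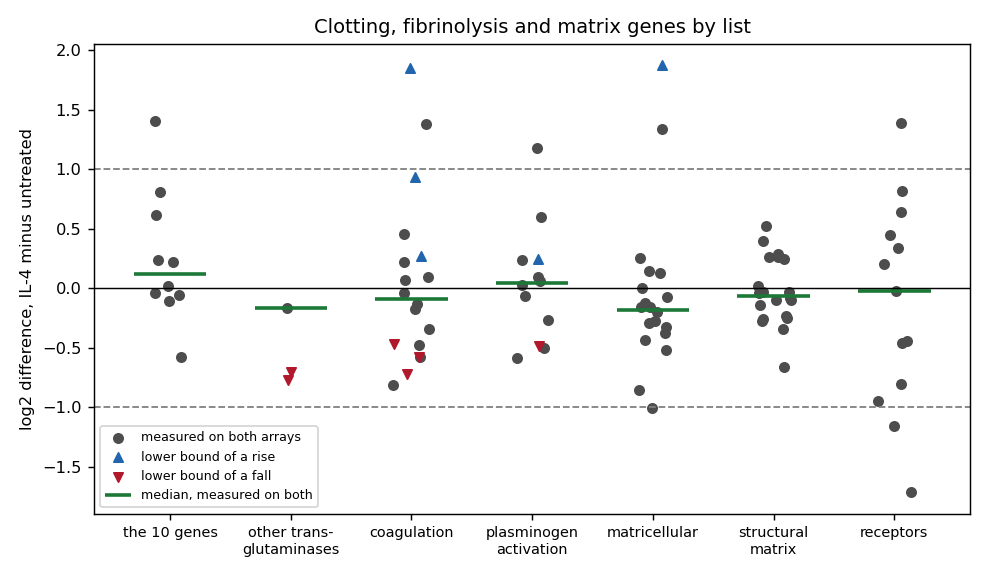
log2 difference (IL-4 minus untreated) of every gene with a value, in the 10 genes and in 6 lists of related genes, each gene read from its brightest probe. Circles were measured on both arrays, green lines are medians of the circles, and dashed lines mark a 2-fold difference. Triangles are genes above background on only 1 array, given as bounds except for Ccn3, whose value is a plain difference. Most genes lie between the dashed lines, and the medians of the lists lie between -0.18 and 0.12.

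**Figure D5:**
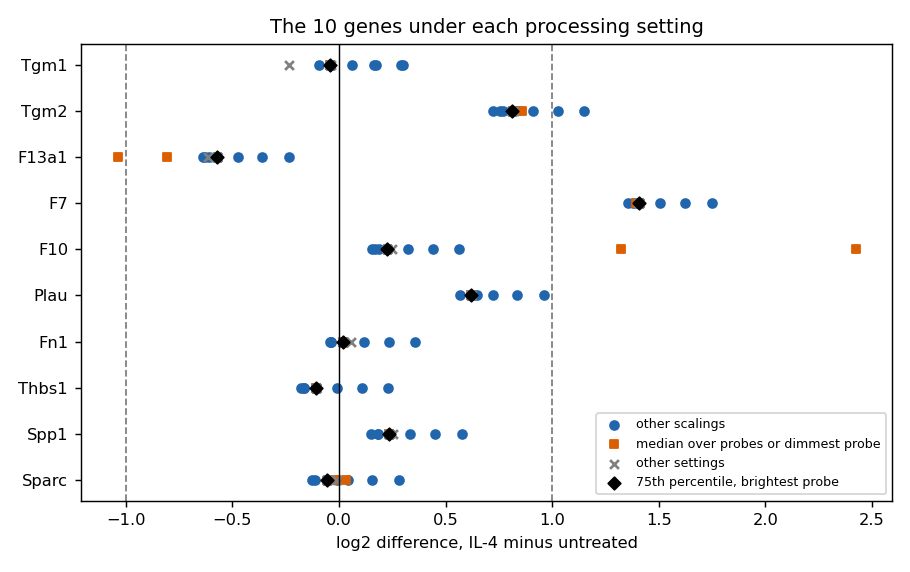
log2 difference of each of the 10 genes under each processing setting, with the reported value as a black diamond. The values under other scalings are in blue, and the choice of probe (orange) moves F10 from 0.22 to 2.42 and F13a1 from -0.57 to -1.04.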

How the data were processed

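Total RNA of untreated and IL-4-treated BMDMs was labelled with Cy3 and read on 1 array each. What the authors deposited is the output of Feature Extraction 10.10.1.1 at default settings. The deposited intensity is background-subtracted and detrended within an array and not scaled between arrays, and its flags mark each spot as above background or not. A second table deposited by the authors holds processed values in log2. Its scale is log2, since its differences over the members' probes equal those of the scanner intensity within 4.71e-06 after a constant offset of 0.000564. How it was centred is not given in the sources used here, and its column medians are 0.161 and 0.0160.

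Control and outlier spots were left out, spots sharing a probe were averaged in log2, and each array was shifted by its 75th percentile (9.84 untreated, 9.94 IL-4). A gene was read from its probe with the highest mean log2 signal. Where only 1 array detected a probe, its difference is a bound, taken against the dim array's detection floor or the probe's signal there, whichever was higher. Where the probe's signal was the higher, as for Ccn3, the value is the plain difference. The array was designed on mm9. Names came through RefSeq accessions from a GRCm38.p6 table, which matched 27229 of 39424 probes to 20656 symbols, and gene coordinates of that table are not printed. The median spot SD was 0.065 over 259 probes printed in 10 spots. A count step tested on simulated data with 39424 probes recovered 200 of 200 probes changed 4-fold and called 0 unchanged ones. The simulated noise had an SD of 0.1 per array, too small to bring either kind of probe near the 2-fold limit. Both simulated arrays had the same detection flags, so no bounds arose. This checks the counting code only and says nothing of how reliable the calls in the real data are. The members, gene lists and rules were chosen with earlier results of these data known. The genes named are the 10 members, list genes at least 2-fold changed and up to 4 of the brightest others per list. Cell markers, undetected genes, F3, Vcan, Fbln1 and chromosomal neighbours are named outside this rule. A gene that the rule names is not reported here. Alternatives covered scaling, background, filters, probe choice and threshold. The array number limits the precision. Protein sequences were not used here. Tables were made with pandas 2.3.3 and numpy 2.4.6 in Python 3.11.15, and normalizations with limma 3.58.1 in R 4.3.3.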

Additional observations from a re-analysis of the deposited data

How the results depend on the processing

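No paired analysis was possible because 1 array stood for each condition, and leaving out an array leaves no comparison. The 1 member at least 2-fold higher (F7) became 2 with median scaling or spike-in scaling, which add Tgm2, and with the median over probes or the dimmest probe, which add F10, and 0 at a log2 threshold of 1.5. The 0 members at least 2-fold lower became 1, F13a1, with the dimmest probe, a setting chosen after seeing the data. For the other pathway genes, the 6 higher became 3 with normexp, where Tfpi2, Comp and Ccn3 fall below the limit, 12 with no filter on dim probes or with the positive and significant flag, and 2 at the stricter threshold. The 3 lower became 1 with median scaling, spike-in scaling, normexp or the stricter threshold, 5 with the dimmest probe, 7 in the authors' processed values, and 10 with no filter or with the positive and significant flag. Median and spike-in scaling shift all genes by 1 constant, while quantile normalization moved Tgm1 up to 0.29 and Tgm2 down to 0.72. Filters and thresholds change counts by construction. So does the reading of the authors' processed values, where genes detected on 1 array only were given their plain difference and not a bound. Tfpi2, for one, had 1.85 as a bound, and 2.72 both in the processed values and with no filter. Normexp was run with an offset of 50 added to the signal, and the part of this offset in the lower counts was not tested. Of the 10 members, 6 kept their sign in all settings other than the dimmest probe, and Tgm1, Fn1, Thbs1 and Sparc did not. Genes near background, such as Tgm1, Tnxb and Itga8, are limited by signal over background.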

Other observations

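Osteopontin and SPARC are matrix proteins of bone, and osteoclasts are fused macrophages, so the osteoclast markers were read as well. Of 8 markers, 7 were well above background on both arrays, and Ocstamp, a membrane protein needed for fusion, was the 1 at least 2-fold higher. It read 79.2 in untreated and 659 in IL-4-treated BMDMs, a log2 difference of 2.96. Atp6v0d2, a proton pump subunit, had a difference of 0.64, and Acp5 and Ctsk had differences of 0.25 and -0.26. Dcstamp, Oscar and Mmp9 had differences of -0.12, 0.19 and -0.11, and the median of the 7 was 0.19. Calcr, the calcitonin receptor of mature osteoclasts, was above background on neither array.

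Among the macrophage markers, Fcgr1 and Mertk, a TAM receptor for Gas6, were at least 2-fold lower after IL-4, with differences of -1.23 and -1.14. Lyz2 and Itgam had differences of -0.70 and -0.71 at their brightest probes, and Csf1r, Adgre1 and C1qa lay between 0.09 and 0.17. The other probes of Itgam gave smaller falls, of -0.27 and -0.24, and those of Csf1r gave 0.05 and -0.11.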
